A study of Mus musculus with 12 samples.

Results

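The miR-30 family was followed in serum of 3 mice before and after they received human neuroblastoma cells. Its members were taken by miRBase accession from the mouse miRNA tables. The list held 7 mature miRNAs, namely miR-30a-5p (MIMAT0000128), miR-30a-3p (MIMAT0000129), miR-30b-5p (MIMAT0000130), miR-30c-5p (MIMAT0000514), miR-30d-5p (MIMAT0000515), miR-30e-5p (MIMAT0000248) and miR-30e-3p (MIMAT0000249). The first 6 were among the 874 mature mouse miRNAs of the tables, and miR-30e-3p was not analysed here. All 6 were listed in each of the 12 libraries, and all 6 passed the filter on low values in every fit below.

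Sera came from 3 female athymic NCr nude mice (mouse 1046, mouse 1047 and mouse 1069), aged 4 to 6 weeks when they received the cells. Athymic mice lack mature T cells and therefore accept human tissue. SH-SY5Y, an established human neuroblastoma line, was implanted beneath the renal capsule. Each mouse gave a first serum before any treatment and a second serum 2 weeks after SH-SY5Y implantation. RNA from 50 μl of each of the 6 sera was divided between an undepleted aliquot and an aliquot depleted of 5′ tRNA fragments with biotinylated DNA probes and streptavidin beads. Small RNA libraries (TruSeq, 15 PCR cycles) were sequenced, which gave 4 groups of 3 libraries: before depleted, after depleted, before undepleted and after undepleted. No group of mice without tumour cells was sampled at the later time, so the tumour, the surgery and the time elapsed cannot be told apart. Serum miRNAs come from many tissues, and fewer releasing cells and less RNA released per cell cannot be told apart either.

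A microRNA is a short RNA that guides the Argonaute proteins to messenger RNAs, mainly through its seed, bases 2 to 8 counted from its 5′ end, and lowers their translation and stability. Each hairpin precursor can give a 5p and a 3p strand, of which one usually dominates. The 5p members of the miR-30 family share a seed and therefore many predicted targets, and they are widely expressed in epithelium, kidney, heart and muscle. They are known for restraining epithelial-to-mesenchymal transition and autophagy genes in a number of tissues.

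The sequences show how closely the members resemble each other, which matters for counting reads that were mapped without mismatches. They are RefSeq entries on GRCm38.p6, matched by name for 5 of the 7 members, and are printed 5′ to 3′ with the seed in capitals for the 4 of these that were analysed. miR-30b-5p and miR-30d-5p are named only.
miR-30a-5p: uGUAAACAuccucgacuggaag
miR-30e-5p: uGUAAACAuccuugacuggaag
miR-30c-5p: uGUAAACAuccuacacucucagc
miR-30a-3p: cUUUCAGUcggauguuugcagc
The 3 printed 5p members have the seed GUAAACA, whereas miR-30a-3p has the seed UUUCAGU. Of the 22 positions compared, miR-30a-5p and miR-30e-5p differed at 1, C13U, counted from the 5′ end with the base of miR-30a-5p first. Reads that do not cover base 13 could not separate them. miR-30c-5p differed from each of the other 2 at 5 of 22 positions, the first of them also at position 13. The only other mature mouse miRNA of the sequence table with the seed GUAAACA in bases 2 to 8 was mmu-miR-384-5p, for which no value was assigned. The same holds for the other miR-30 entries of that table, mmu-miR-30c-1-3p, mmu-miR-30c-2-3p and mmu-miR-30f.

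The members derive from 6 hairpins in 3 pairs. miR-30a-5p (chr1:23272274-23272295, + strand) and miR-30a-3p (chr1:23272315-23272336, + strand) come from Mir30a, which overlapped no annotated gene (GENCODE M21, GRCm38). Mir30c-2, one of the hairpins of miR-30c-5p (chr1:23291714-23291736, + strand), lies 19361 bases further on, in an exon of the long non-coding RNA Gm27028. The other, Mir30c-1 (mature strand chr4:120769584-120769606, − strand), lies 2983 bases from Mir30e (miR-30e-5p, chr4:120772660-120772681, − strand), and both are in an intron of Nfyc, which encodes a subunit of the transcription factor NF-Y. Mir30b (chr15:68337415-68337510, − strand) and Mir30d (chr15:68341208-68341289, − strand) are 3697 bases apart and lie in exons of the non-coding genes Gm26621 and of Gm37296 and Gm20732. The mature miR-30c-5p is identical from both of its hairpins, so its counts cannot be divided between chromosomes 1 and 4. Mir30f is annotated on the strand opposite to Mir30e. Its mature miRNA covers 19 of the same genomic positions as miR-30e-3p, on the opposite strand, and does not reach miR-30e-5p.

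The number of mouse miRNA counts differed strongly between the arms, which is no measure of the reads sequenced. Depleted libraries held 938706 to 2271549 mouse miRNA counts, and undepleted libraries 21235 to 97183. By these counts mouse 1069 gave the smallest library, from the undepleted serum before injection. mmu-miR-16-5p (MIMAT0000527), a miRNA abundant in red cells, made up 10.8 to 12.6% of the mouse counts before and 5.62 to 7.71% after injection in depleted libraries, and 14.5 to 17.8% before and 7.14 to 10.4% after injection in undepleted libraries. Its normalised read count in depleted libraries was 213560 ± 45918 before and 97104 ± 13048 after injection (SD, n = 3 each; DESeq2 log2 fold change −1.07, SE 0.25, adjusted p = 0.000885). The part of red cell RNA in the results for the miR-30 family was not tested.

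First, the abundance of the family was evaluated. Together the 6 members took 6.65 to 11.2% of all mouse miRNA counts in depleted libraries and 5.96 to 8.99% in undepleted libraries. The share was least precise in the smallest library, at 7.38% (95% Wilson interval 7.04 to 7.74%, counting error only). In depleted libraries the mean share was 9.65% before and 8.10% after injection, and in undepleted libraries 7.95% and 7.43%. With miR-16-5p left out of the denominator, the depleted means were 11.0% and 8.69%. The ranges of the groups overlapped in both arms, and no test was made on this sum.

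The members differed widely in read count. Whether counts of different miRNAs compare as amounts of RNA was not tested. miR-30e-5p was between rank 5 and rank 10 of all mouse miRNAs in the depleted libraries, miR-30a-5p between 7 and 13, and miR-30d-5p between 11 and 15. miR-30c-5p (rank 40 to 86) and miR-30b-5p (rank 57 to 78) were far lower, and miR-30a-3p, the minor strand of the Mir30a hairpin, was the lowest at rank 105 to 113. Raw counts in depleted libraries ran from 26651 to 94705 for miR-30e-5p and from 310 to 488 for miR-30a-3p. In undepleted libraries miR-30a-3p had only 10 to 28 counts, miR-30b-5p 33 to 108 and miR-30c-5p 45 to 137, so their changes were less precisely measured there.

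The order within the family was not the same before and after injection. Before injection the mean normalised read counts in depleted libraries were 79115 ± 32445 for miR-30e-5p, 59768 ± 16845 for miR-30a-5p and 31923 ± 10759 for miR-30d-5p (SD, n = 3). After injection they were 51129 ± 8954, 28805 ± 5887 and 32243 ± 1568 (SD, n = 3), so miR-30d-5p had the second highest mean. miR-30a-5p was above miR-30d-5p in all 3 sera before injection, and in the serum of mouse 1046 alone after it. Likewise miR-30b-5p (1493 ± 197) and miR-30c-5p (1385 ± 377) were close together before injection, and miR-30c-5p (2987 ± 923) was above miR-30b-5p (2041 ± 63.3) in mean after it. Over the mice, the ranges of miR-30e-5p and miR-30a-5p and of miR-30b-5p and miR-30c-5p overlapped before injection. Those of miR-30a-5p and miR-30d-5p and of miR-30b-5p and miR-30c-5p overlapped after it. Within sera, miR-30e-5p was above miR-30a-5p in all 3 before injection, though narrowly in mouse 1069 (42491 against 42113). The order of miR-30b-5p and miR-30c-5p differed between sera at both times.

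**Figure D1:**
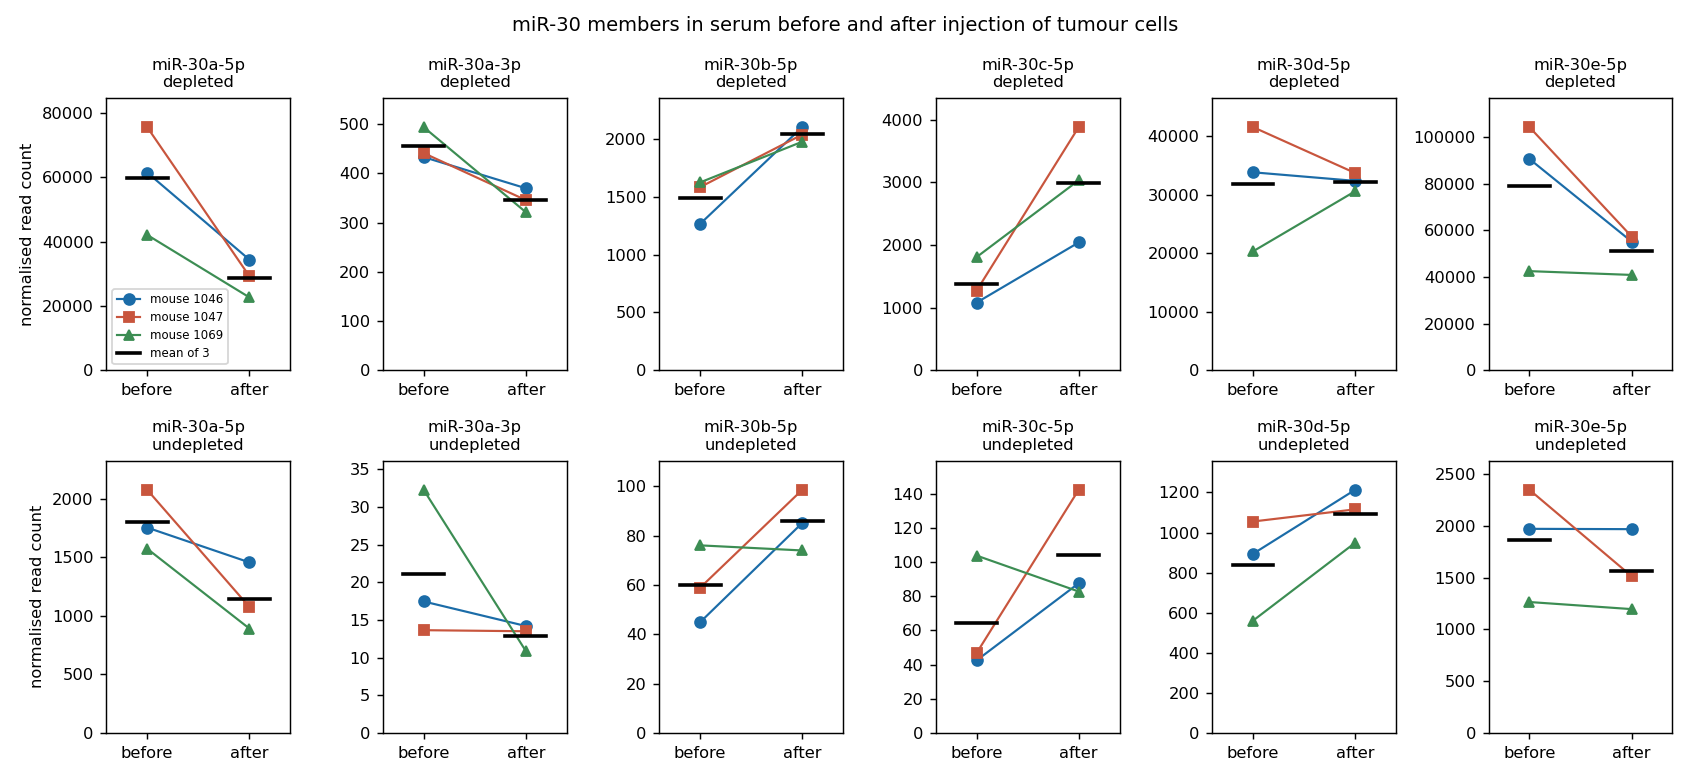
Normalised read count of each of the 6 members (linear axes from 0, a separate scale in each panel) before and after injection, with depleted libraries in the top row and undepleted libraries below. Symbols joined by lines are the 3 mice and black bars are group means. In depleted libraries the before and after groups are apart for miR-30a-5p and miR-30a-3p (lower after injection) and for miR-30b-5p and miR-30c-5p (higher after injection). Groups were also apart for 38.3% of the 311 miRNAs tested there. Of these members, miR-30a-3p and miR-30b-5p did not pass the test.

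Next, each member was compared before and after injection in the depleted libraries. The fitted changes differed in direction between members. miR-30c-5p rose 2.02-fold, miR-30a-5p fell to 0.509 of its level, and the other 4 did not pass the test. No test compared the members with each other. The libraries were fitted with DESeq2 over the whole mouse table, with a zero-centred prior that pulls fold changes towards no change. Calls needed an adjusted p (Benjamini-Hochberg) below 0.05 and a change of 2-fold or more. By this rule 1 of the 6 members was called, against 10.6% of the 311 miRNAs tested. On the adjusted p alone, 2 of 6 members passed, against 16.7% of those tested.

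miR-30c-5p had normalised read counts of 1079, 1269 and 1806 before and 2041, 3884 and 3034 after injection (here and below in the order mouse 1046, 1047, 1069). Every value after injection was above every value before it, and the gain was largest in mouse 1047, at 3.06-fold, against 1.89-fold and 1.68-fold in the others. The log2 fold change was 1.02 (SE 0.29, 95% interval 0.45 to 1.59, DESeq2 adjusted p = 0.0052), which lies at the 2-fold cut-off. Its call rested on mouse 1047, without which the log2 fold change was 0.76 with an adjusted p of 0.171. Over the fits that each leave out a mouse, the DESeq2 adjusted p ran from 2.89e-06 to 0.171. With only miRNAs of at least 4 counts in at least 3 libraries in the fit, the log2 fold change was 0.99 (adjusted p = 0.00647). It thus fell short of 2-fold.

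miR-30a-5p, which shares its seed with miR-30c-5p, went the other way. Its normalised read counts were 61524, 75666 and 42113 before and 34429, 29301 and 22686 after injection. All values after injection were below all values before it, and the level after injection was 0.560, 0.387 and 0.539 of that before. The log2 fold change was −0.98 (SE 0.28, 95% interval −1.52 to −0.43, DESeq2 adjusted p = 0.00449), so the decrease passed on the adjusted p and missed the 2-fold cut-off narrowly. Without mouse 1047 the log2 fold change was −0.73 and the adjusted p 0.171. The DESeq2 adjusted p ran from 5.6e-09 to 0.171 over the fits that each leave out a mouse.

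miR-30a-3p, made from the same hairpin, had 433, 441 and 494 normalised read counts before and 370, 346 and 321 after injection. The groups were apart and the values lower in 3 of 3 mice, but the log2 fold change of −0.38 (SE 0.25) did not pass the test (DESeq2 adjusted p = 0.295). miR-30b-5p had 1267, 1585 and 1626 before and 2105, 2041 and 1979 after injection. These groups did not overlap either, the values being higher in 3 of 3 mice, and the log2 fold change of 0.43 (SE 0.24) missed the threshold as well (DESeq2 adjusted p = 0.21). For miR-30b-5p the adjusted p was 0.0151 without mouse 1069 and 0.0386 with total counts as size factors, at log2 fold changes of 0.53 and 0.67. Its highest adjusted p in a DESeq2 fit without a mouse was 0.546.

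miR-30e-5p, the member with the highest read counts in depleted libraries, varied strongly between the mice before injection. Its normalised read counts were 90595, 104260 and 42491 before and 55181, 57340 and 40865 after injection. Mouse 1069 already started low and hardly differed between its sera (ratio 0.962), whereas the ratios of the other mice were 0.609 and 0.550. The log2 fold change of −0.57 (SE 0.30, 95% interval −1.17 to 0.03) did not pass the test (DESeq2 adjusted p = 0.193). It depended on mouse 1069, without which the log2 fold change was −0.76 and the adjusted p 8.28e-06. The highest adjusted p in a fit without a mouse was 0.521. The fit without mouse 1069 drops the mouse that hardly differed and rests on fewer libraries. Its adjusted p is therefore no stronger evidence than that of the full fit. The same holds for the small adjusted p-values of other fits that leave out a mouse.

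miR-30d-5p showed the same spread between the mice but no common direction. Its normalised read counts were 33855, 41585 and 20328 before and 32387, 33733 and 30608 after injection, with a higher value after injection in mouse 1069 alone. The log2 fold change was 0.01 (SE 0.28, 95% interval −0.53 to 0.55, DESeq2 adjusted p = 0.981). The interval spans changes in either direction.

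The groups of 3 libraries did not overlap for 4 of the 6 members, against 38.3% of all miRNAs tested. Of the 6, 2 were higher with no overlap, against 20.3% of all, and 2 lower, against 18%. The median log2 fold change of the 6 members was −0.18, beside −0.10 over all miRNAs tested. Of the 6, 3 had a positive and 3 a negative fold change. With total mouse counts as size factors the median of all tested miRNAs moved to 0.12, and the directions of the 6 members were the same.

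The same sera were then compared in the undepleted libraries, which hold aliquots of the same RNA with far fewer miRNA counts and are no independent samples. No member was called with DESeq2, against 11% of the 109 miRNAs tested, and 1 had an unadjusted p under 0.05. edgeR called none either. On the adjusted p alone 1 of 6 members passed, against 19.3% of those tested. The groups did not overlap for 1 of the 6 members, against 39.4% of all.

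The member that passed was miR-30a-5p, with 1755, 2078 and 1574 normalised read counts before and 1458, 1077 and 892.3 after injection. Size factors were fitted within each arm, so these levels are not on the scale of the depleted libraries. Its log2 fold change was −0.62 (SE 0.24, 95% interval −1.09 to −0.16, DESeq2 adjusted p = 0.0466). With the mouse as a block the adjusted p was 0.0581. It was 0.239 without mouse 1046, 0.998 without mouse 1047 and 0.0171 without mouse 1069. The pass was also lost with TMM factors (adjusted p = 0.0975), with total counts as size factors (adjusted p = 0.0589) and with edgeR (adjusted p = 0.649).

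miR-30c-5p had 42.4, 46.7 and 103.7 normalised read counts before and 87.5, 142.2 and 82.7 after injection in undepleted libraries. It was higher after injection in mice 1046 and 1047 and lower in mouse 1069, whose first library was the smallest of all, with 45 raw counts of miR-30c-5p. The log2 fold change was 0.66 (SE 0.34, 95% interval −0.01 to 1.33, DESeq2 adjusted p = 0.158). Without mouse 1069 it was 1.14 with an adjusted p of 0.00416. The highest adjusted p in a DESeq2 fit without a mouse was 0.998.

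Of the remaining members in undepleted libraries, none passed the test. The log2 fold change was −0.48 for miR-30a-3p (DESeq2 adjusted p = 0.538), 0.50 for miR-30b-5p (adjusted p = 0.246), 0.36 for miR-30d-5p (adjusted p = 0.35) and −0.24 for miR-30e-5p (adjusted p = 0.613). miR-30d-5p was higher after injection in 3 of 3 mice here, and miR-30b-5p in 2 of 3. The median over the members was 0.06, beside −0.06 over all miRNAs tested.

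**Figure D2:**
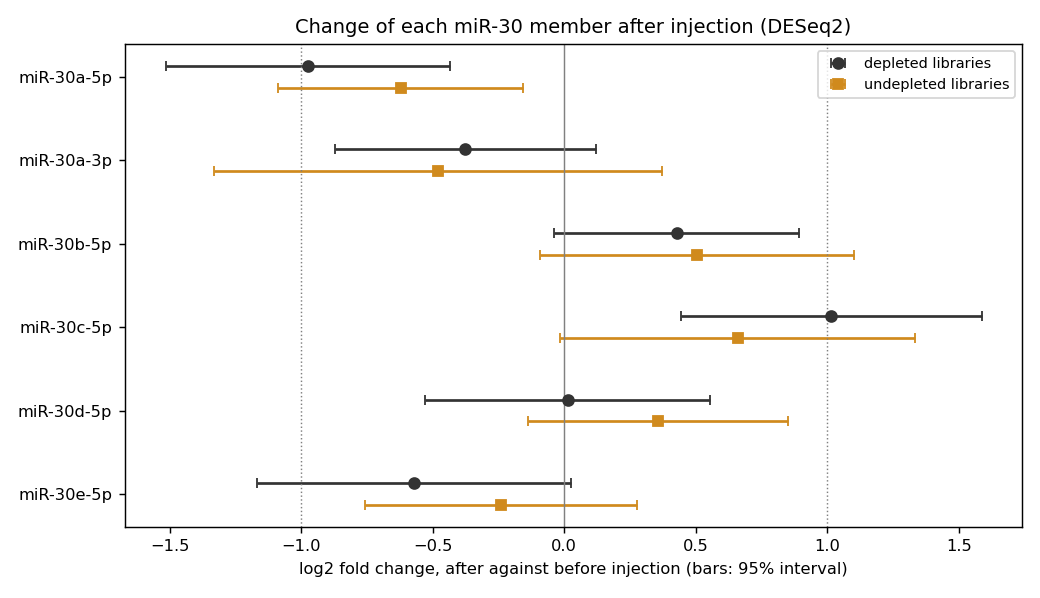
DESeq2 log2 fold change of each member after against before injection (x axis), with 95% intervals as bars, for depleted (circles) and undepleted (squares) libraries. Dotted lines mark 2-fold changes. miR-30c-5p lies highest in both arms and miR-30a-5p lowest, and only their intervals in depleted libraries and that of miR-30a-5p in undepleted libraries leave out 0.

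Whether the change after injection differed between the arms was tested as an interaction over all 12 libraries. DESeq2 called 0% of the 874 miRNAs, and none of the members, of which none had an unadjusted p under 0.05. edgeR also called none. The difference in log2 fold change, depleted minus undepleted, ran from −0.32 for miR-30a-5p (95% interval −1.05 to 0.42) to 0.45 for miR-30c-5p (95% interval −0.61 to 1.50). These intervals are wide enough to hold differences of 2-fold, so the arms are not shown to behave alike. With the serum as a block, which pairs the aliquots, DESeq2 called none either, and the difference was −0.28 for both miR-30a-5p and miR-30d-5p (adjusted p = 0.999 each). Within the mice, the change of miR-30a-5p was lower in the depleted arm in 3 of 3 (log2 differences −0.57, −0.42 and −0.07), as was that of miR-30d-5p (−0.51, −0.38 and −0.17). The other 4 members had differences of both signs.

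To describe the family without any scaling between libraries, each 5p member was expressed as a share of the summed 5p counts of its own library. Shares of one library add up to 100%, so a higher share of one member lowers the others. In depleted libraries the share of miR-30a-5p was 32.7, 33.7 and 38.9% before and 27.3, 23.2 and 22.9% after injection. The share of miR-30d-5p was 18.0, 18.5 and 18.8% before and 25.7, 26.7 and 30.9% after it. Neither member's groups overlapped, and the mean differences were −10.6 and 9.33 percentage points.

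The minor members also took more of the family after injection. The share of miR-30b-5p was 0.673, 0.707 and 1.50% before and 1.67, 1.62 and 2.00% after injection, again with no overlap. That of miR-30c-5p was 0.573, 0.566 and 1.67% before and 1.62, 3.08 and 3.06% after injection, higher in 3 of 3 mice, with ranges that overlapped slightly. miR-30e-5p kept the largest share, with 44.6 ± 4.7% before and 43.5 ± 2.1% after injection (SD, n = 3). In two-sided exact permutation tests, p was 0.1 for miR-30a-5p, miR-30b-5p and miR-30d-5p, the smallest value that 3 against 3 libraries can give, 0.2 for miR-30c-5p and 0.7 for miR-30e-5p. Over the 5 shares the smallest Benjamini-Hochberg adjusted value of these exact tests was 0.167, so no share passed the threshold, which this design cannot reach.

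The same shares were taken in the undepleted libraries of these sera. The share of miR-30a-5p was 39.5 ± 3.9% before and 28.5 ± 1.6% after injection, and that of miR-30d-5p was 17.8 ± 1.9% and 27.7 ± 2.3% (SD, n = 3). Both pairs of groups were apart (exact permutation test, p = 0.1 each). miR-30b-5p, miR-30c-5p and miR-30e-5p overlapped between the groups there (exact permutation test, p = 0.2, 0.3 and 0.8). Between the aliquots of a serum the composition was not the same. The share of miR-30a-5p was 2.99 to 5.12 percentage points lower in the depleted aliquot in 6 of 6 sera, that of miR-30b-5p was also lower in 6 of 6, and that of miR-30e-5p was 2.82 to 7.03 percentage points higher in 6 of 6. These differences were seen after the shares were computed and are given without a test.

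**Figure D3:**
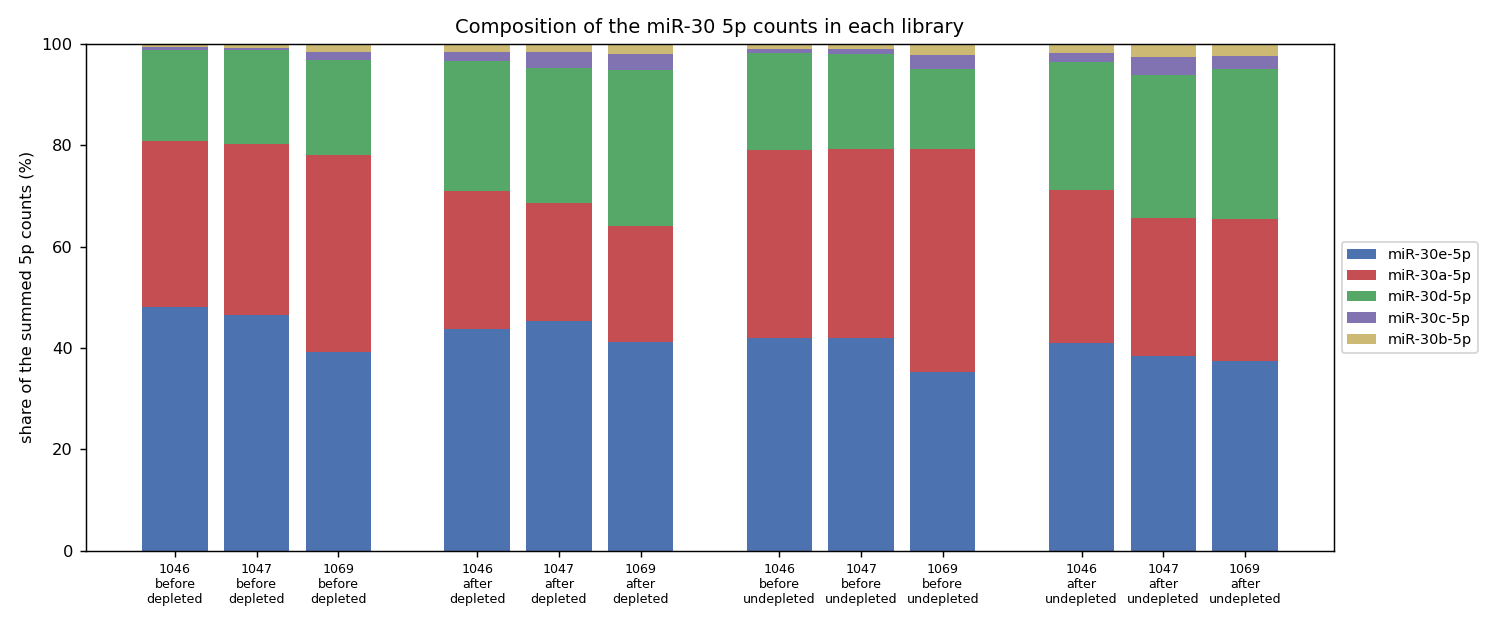
Share of each 5p member in the summed miR-30 5p counts (y axis, %) of each of the 12 libraries, as stacked bars that add up to 100%. In depleted libraries the share of miR-30a-5p went from 32.7 to 38.9% before injection to 22.9 to 27.3% after it, and that of miR-30d-5p from 18.0 to 18.8% to 25.7 to 30.9%.

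The 5p and 3p strands of miR-30a were compared within each library. In depleted libraries there were 142, 171 and 85.2 counts of miR-30a-5p for each count of miR-30a-3p before injection, and 93.1, 84.7 and 70.6 after it. The ratio was lower in 3 of 3 mice, but the groups overlapped (log2 difference −0.63, exact permutation test, p = 0.2). In undepleted libraries, with 10 to 28 counts of the 3p strand, the ratios were 101, 152 and 48.8 before and 103, 79.8 and 82.0 after injection (log2 difference −0.05, exact permutation test, p = 1.0). The depleted aliquot had the higher ratio in 4 of 6 sera (log2 difference, depleted minus undepleted, 0.20, exact sign-flip permutation test, p = 0.3125). An effect of the depletion on strand balance was thus not detectable with these counts.

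Next, the effect of the depletion itself on the members was evaluated with both aliquots of the 6 sera. The main fit had time point and depletion as terms and did not pair the aliquots of a serum. No member was called with DESeq2, against 8.36% of the 383 miRNAs tested, and edgeR called none. On the adjusted p alone no member passed, against 14.4% of those tested, and 1 had an unadjusted p under 0.05. That member was miR-30b-5p, which was lower in the depleted aliquot in 6 of 6 sera. Its log2 ratio of normalised read counts was between −0.61 and −0.14 per serum, with a fitted log2 fold change of −0.31 (SE 0.12, DESeq2 adjusted p = 0.0535). With the serum as a block the adjusted p was 0.0131, with miR-16-5p left out of the size factors 0.0493, and with TMM scaling the log2 fold change was −0.06 (adjusted p = 0.814).

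For the other members no difference between the aliquots passed the test. The fitted log2 fold changes, depleted against undepleted, were −0.10 for miR-30a-5p (DESeq2 adjusted p = 0.851), −0.28 for miR-30a-3p (adjusted p = 0.384), −0.27 for miR-30c-5p (adjusted p = 0.609), 0.11 for miR-30d-5p (adjusted p = 0.856) and 0.26 for miR-30e-5p (adjusted p = 0.595). miR-30d-5p and miR-30e-5p were each higher in the depleted aliquot in 5 of 6 sera, and miR-30a-3p and miR-30c-5p lower in 5 of 6. The signs of miR-30a-5p and miR-30c-5p depended on the scaling. TMM moved the median of all tested miRNAs from −0.04 to 0.21, and with it miR-30a-5p to 0.17 and miR-30c-5p to 0.01. Those of miR-30d-5p, miR-30e-5p and miR-30a-3p did not change sign with any scaling. The median over the members was −0.19, beside −0.04 over all miRNAs tested.

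**Figure D4:**
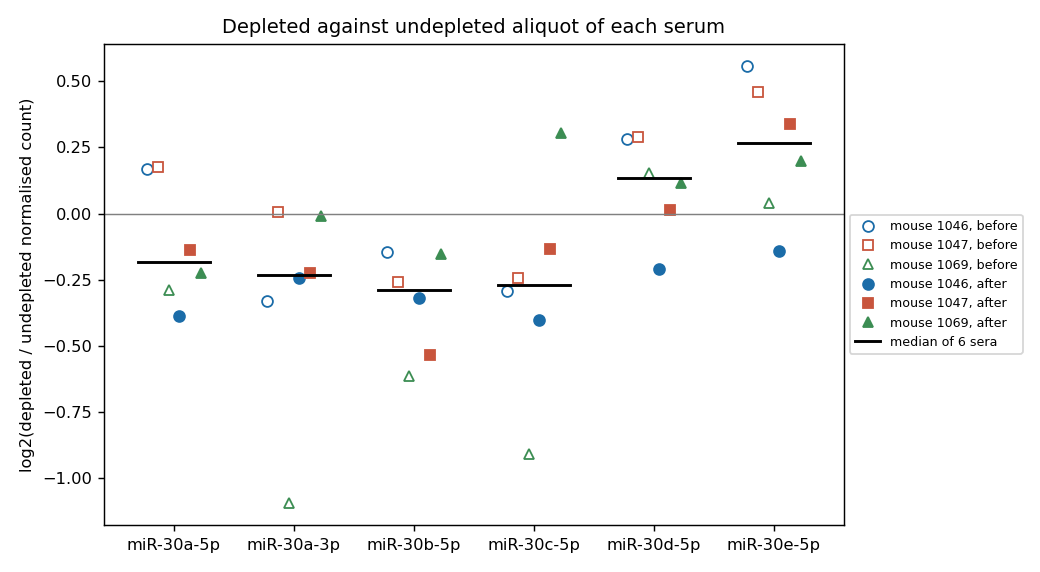
Log2 ratio of the normalised read count in the depleted against the undepleted aliquot (y axis) of each serum, for the 6 members (x axis). Open symbols are sera before and filled symbols sera after injection, and black bars are medians of 6 sera. miR-30b-5p lies below 0 in all 6 sera, and the lowest points of miR-30a-3p (−1.09) and miR-30c-5p (−0.91) both come from the first serum of mouse 1069, which gave the smallest library.

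The injected cells were human, and the human tables count the same reads wherever a miRNA has the same sequence in both species. No source used here pairs human accessions with names, so the human row with the smallest summed count difference was taken as the counterpart of each member. Their agreement is therefore how they were chosen and no result. The rows taken for miR-30a-5p, miR-30a-3p, miR-30c-5p and miR-30e-5p had the same counts as the mouse rows in all 12 libraries, and those for miR-30b-5p and miR-30d-5p differed by 22 and 7 counts in total, which is 0.184% and 0.0033% of their sums. The next nearest human row differed by 7.03% or more for each member. Which species the reads came from was not tested, and the human fits are no independent evidence. In the human tables DESeq2 called 1 of 6 counterparts in depleted libraries, against 7.12% of the 323 miRNAs tested, namely miR-30c-5p (2.14-fold, adjusted p = 0.00351). In undepleted libraries it called none, against 8.41% of 107, with 2 at an unadjusted p under 0.05 and none called by edgeR.

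Finally, the profiles were compared over the 6 depleted libraries, as the root-mean-square difference of log2(normalised read count + 1) after centring each miRNA. Among the members, miR-30a-5p and miR-30e-5p, which differ at 1 base, were closest (0.31), and miR-30a-5p and miR-30c-5p farthest apart (1.21). The latter pair has a hairpin each on chromosome 1, as neighbours. Between other members of one hairpin or of neighbouring hairpins the difference was 0.45 for miR-30a-5p and miR-30a-3p, 0.41 for miR-30b-5p and miR-30d-5p and 1.07 for miR-30c-5p and miR-30e-5p. The summed 5p counts came mostly from miR-30e-5p, miR-30a-5p and miR-30d-5p (mean shares 44.0, 29.8 and 23.1% in depleted libraries). They hold little of miR-30c-5p (1.76%) and miR-30b-5p (1.36%). Outside the family, the 5 miRNAs most like this sum had differences of 0.10 to 0.15, beside a median of 0.59 over the 207 miRNAs compared. The nearest were MIMAT0000152 (0.10) and MIMAT0004869 (0.12), whose names the sources used here do not give. These are descriptions over 6 libraries that share 3 mice.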

How the data were processed

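Small RNA libraries of 6 sera from 3 mice were analysed, each serum with and without depletion. The deposited values are counts of reads per mature miRNA, not normalized, in a mouse and a human table for each library. The authors trimmed adaptors (cutadapt 1.8.1), discarded short and low-quality reads, mapped without mismatches (Bowtie 1.1.2, GRCm38 and GRCh37) and assigned reads by miRBase coordinates. How reads with more than 1 locus were counted, and whether strand was used, are not given in the sources used here. A miRNA not listed in a library was taken as 0.

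The counts of all miRNAs with at least 1 read were tested with DESeq2 1.42.0 (R 4.3.3), which the study also used, by a Wald test with median-of-ratios size factors, zero-centred prior and independent filtering. Each arm and each species had its own fit, with the time point as only term. Depletion and its interaction with time point (without prior) were fitted on the 12 mouse tables. These main fits had no term for the serum, so the aliquots were paired only in the replicate block. p-values were Benjamini-Hochberg adjusted over the whole table. Shares and strand ratios were compared by two-sided exact permutation tests written with NumPy 2.4.6. Wilson intervals were computed with SciPy 1.17.1. No pair of libraries had identical counts. The count tests were checked on simulated data with planted changes larger than those of the members, so this check does not measure the power for them. Alternatives were edgeR 4.0.16 (quasi-likelihood, TMM), TMM, total-count and miR-16-5p-free size factors, a filter on low counts, no prior, a replicate block and leaving out each mouse.

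The mouse number in the labels pairs the sera of 1 animal. Deviations of the 2 sera of a mouse from their group means correlated with r of −0.42, 0.10 and −0.14 in depleted and −0.27, −0.24 and −0.14 in undepleted libraries. Aliquots of 1 serum correlated with r of 0.43 to 0.62 over 115 miRNAs.

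The members, lists and tests were chosen with earlier results of these data known. All members were named whatever their values, as well as other miRNAs with the same seed and the 5 most similar profiles, of which 2 are printed because no source used here pairs their accessions with names. For that reason marker miRNAs other than miR-16-5p were not matched. Wilson intervals cover counting error only.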

Additional observations from a re-analysis of the deposited data

How the results depend on the processing

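Calls after injection depended on single mice. In depleted libraries, 2 members instead of 1 were called with edgeR, without the prior and on the adjusted p alone (miR-30a-5p beside miR-30c-5p), and 0 with the filter on low counts. Leaving out 1 mouse gave 0 to 2 members, and over all miRNAs 14 to 33 calls instead of 33 (14 without mouse 1047, 19 without mouse 1069). On the adjusted p alone 52 miRNAs were called over all. In undepleted libraries the adjusted p alone gave 1 member and 21 miRNAs in all, instead of 0 and 12, and leaving out 1 mouse gave 0 to 1 members, with 1 miRNA called in all without mouse 1047 and 7 without mouse 1069. In the human tables of depleted libraries, 2 counterparts were called with total counts as size factors and on the adjusted p alone, and 0 to 2 without 1 mouse. In those of undepleted libraries there was 1 on the adjusted p alone and 0 to 1 without 1 mouse. With total-count size factors the depleted calls over all mouse miRNAs were 32 higher and 5 lower, instead of 15 and 18. In undepleted libraries TMM factors gave 8 higher and 5 lower calls, edgeR and size factors without miR-16-5p 9 and 5 each, instead of 9 and 3. For the depletion the calls over all miRNAs were 55 on the adjusted p alone and 20 without mouse 1046, instead of 32, and TMM factors gave 32 higher and 10 lower (edgeR 34 and 10), instead of 19 and 13. In the human tables of depleted libraries, edgeR called 43 miRNAs, total counts 46 (44 higher, 2 lower) and the adjusted p alone 37, instead of 23 (17 higher, 6 lower), with 6 to 17 without 1 mouse. In those of undepleted libraries, edgeR called 14, total counts 16 (15 higher, 1 lower) and the adjusted p alone 20, instead of 9 (6 higher, 3 lower), with 1 to 8 without 1 mouse. The cause was not tested.

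In the fit for depletion, the log2 fold change of miR-30a-5p turned to 0.17 with edgeR, 0.17 with TMM factors and 0.0021 with total counts, and that of miR-30c-5p to 0.0086 and 0.0109 with edgeR and TMM factors. None of these passed the test. TMM moved the median of all tested miRNAs upwards by a similar amount. The interaction of miR-30b-5p turned to 0.0182 with total counts and lay between −0.16 and 0.11 without 1 mouse. Without 1 mouse, miR-30d-5p after injection lay between −0.17 and 0.22 in depleted libraries, miR-30e-5p between −0.35 and 0.0156 in undepleted libraries, and the share of miR-30e-5p between −2.72 and 0.463 percentage points.

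With the mouse as a replicate block, the log2 fold change after injection in depleted libraries was 1.01 for miR-30c-5p (DESeq2 adjusted p = 0.00704) and −0.97 for miR-30a-5p (adjusted p = 0.00566), and 1 member was called. Beside miR-30a-5p in undepleted libraries and miR-30b-5p in the depletion fit, the block moved no member of the mouse tables across the adjusted threshold. Exact tests paired by mouse cannot go below p = 0.25. The ratio of the miR-30e strands was not computed, since miR-30e-3p was not analysed here. The choice of no prior does not apply to the interaction, which was fitted without one. In undepleted libraries miR-30a-3p rests on 10 to 28 counts.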
